A study of Mus musculus with 20 samples.

Results

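The genes described here are 42 genes of the mitotic spindle, the kinetochore and the spindle assembly checkpoint. They were chosen by name, as members of these structures, from the 37561 genes listed in the deposited tables, and each of the 42 was found by its symbol. They fall into 8 groups by role, from the checkpoint to chromosome condensation. All 42 passed the filter on low levels that 13590 genes passed. Their transcripts were followed by RNA-Seq through neuronal differentiation of 2 mouse lines. Both lines came from D3 (ESD3) embryonic stem cells of strain 129s2/SvPas, kept on mouse embryo fibroblast feeder cells and then grown as spherical neural masses (SNM) that were differentiated towards dopaminergic neurons. The control line carried a retroviral shRNA against luciferase and the HPRT knockdown line a retroviral shRNA against HPRT, the purine salvage enzyme whose loss causes Lesch-Nyhan disease, so that infection and an shRNA are common to every library. Libraries were made on each day up to day 4, starting at day 0, and on every other day after that up to day 14, with 1 library per line and day, which makes 20 libraries. The labels name 1 line of each kind and RNA of independently replicated cultures, which was pooled for each library. Days therefore supply the only spread, and any p-value below measures how steady a difference was over days of this pair of lines, not how it would vary over other knockdown lines. Tests rest on 9 days, and day 6 is described separately. It was left out because the published pathway analysis set it aside as discrepant.

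Mitosis depends on many proteins, some of which are made anew in each cell cycle. Cdk1 bound to a B cyclin drives entry, the kinetochore joins each centromere to spindle microtubules, and the checkpoint proteins hold back the anaphase-promoting complex until all chromosomes are attached. The anaphase-promoting complex, activated by Cdc20, then has securin (Pttg1) destroyed, which frees separase (Espl1) to cut cohesin. Most of these genes are transcribed late in the cycle, and cells that leave the cycle, as neurons do, shut them off. In bulk RNA fewer dividing cells and less mitotic RNA per cell cannot be told apart.

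The tables give, for each gene and each pair of libraries, normalised log2 values centred on that pair, so that they hold ratios between libraries and no levels. For 27 of the 42 genes the ratios over all libraries were met by a unique set of whole numbers of sequenced bases, from which reads were recovered (bases divided by the read length of 49 that the values implied). Across these 27 genes the count in a library ran from 15.5 reads (Cenpk) to 4290 (Bub1b). Size factors of the libraries ran from 0.795 to 1.51. Hprt (chrX:50341314-50374836, NCBIM37), the targeted gene, stood at 561 to 932 normalised reads in the control libraries and at 20.7 to 149 in the knockdown libraries. Its log2 ratio of knockdown over control lay between -2.53 on day 0 and -5.00 on day 14, and on day 6 it was -3.42, so that the lines matched their labels on every day.

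Late cell cycle genes often carry a cell cycle homology region (CHR) close to the start of transcription, a short distance after a CCAAT box. Both elements were looked for in RefSeq promoters (GRCm38.p6), each 300 bases long with 250 of them before the start, as TTTGAA or TTCGAA for the CHR, CCAAT for the CCAAT box, and TTTGGCGC, TTTCCCGC, TTTCGCGC or TTTGCCGC for E2F sites, on both strands. Below stand the 250 bases before the start for the 3 genes with the lowest knockdown ratios among those with a CHR in that stretch. They are shown because many of the genes hold a CHR and a CCAAT box in the same promoter, which the choice of members did not use. The order and spacing of these elements were not measured over the genes. Espl1 lies at chr15:102296043-102296292 (plus strand), Cdk1 at chr10:69352913-69353162 (minus strand) and Cdc20 at chr4:118437344-118437593 (minus strand), all written 5′ to 3′ along the gene, with CHR, CCAAT and E2F letters in capitals. Bub1 and Aurka, whose ratios were lower than that of Cdk1, held their CHR across or after the start and are not printed.
Espl1: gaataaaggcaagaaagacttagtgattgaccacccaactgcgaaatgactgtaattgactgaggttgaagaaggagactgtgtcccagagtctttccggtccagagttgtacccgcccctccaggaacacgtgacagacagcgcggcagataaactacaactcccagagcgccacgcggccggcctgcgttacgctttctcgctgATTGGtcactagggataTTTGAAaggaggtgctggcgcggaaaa
Cdk1: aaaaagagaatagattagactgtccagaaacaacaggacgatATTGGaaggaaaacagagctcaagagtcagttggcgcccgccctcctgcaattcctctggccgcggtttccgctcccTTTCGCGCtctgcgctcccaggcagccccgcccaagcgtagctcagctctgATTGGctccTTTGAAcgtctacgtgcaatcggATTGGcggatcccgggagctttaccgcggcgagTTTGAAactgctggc
Cdc20: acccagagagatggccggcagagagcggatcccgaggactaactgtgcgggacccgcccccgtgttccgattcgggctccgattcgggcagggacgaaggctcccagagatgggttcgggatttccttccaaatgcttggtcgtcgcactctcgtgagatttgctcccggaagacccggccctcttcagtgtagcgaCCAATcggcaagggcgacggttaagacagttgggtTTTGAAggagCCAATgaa

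In the Espl1 promoter the CHR began 27 bases before the start and the CCAAT box, on the reverse strand as ATTGG, began 44 bases before it. Cdk1 held a CHR at 71 and at 15 bases before the start, reverse-strand CCAAT boxes at 208, 80 and 48 bases, and the E2F letters TTTCGCGC at 131 bases. Cdc20 held its CHR at 18 bases, with forward CCAAT boxes at 53 and 8 bases. None of these marked runs overlapped.

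Promoters were matched for 34 of the 42 genes, which had 38 promoters in all. Aurkb, Ccna2, Cdc25c, Incenp, Kif20a, Smc4, Spc24 and Tpx2 were not matched. A CHR was present in 25 of the 38 promoters (65.8%), against 19.2% of all 32851 promoters of that length and 13.3% of the 13563 promoters of genes that passed the level filter. A CCAAT box was present in 31 of 38 (81.6%), against 37.4% of all promoters, and both elements together in 23 of 38 (60.5%), against 7.52%. The E2F letters were found in 2 of 38 (5.26%), against 2.26% of all promoters and 3.83% of those of genes that passed the filter, and within the 250 bases before the start in 1 of 38 (2.63%), against 3.16% of the latter. Within the 250 bases before the start the CHR was present in 13 of 38 promoters (34.2%), against 17.1% of all, and in the other 12 it lay only across or after the start. Pttg1, Mad2l1, Birc5, Ncaph and Nuf2 held neither a CHR nor a CCAAT box in this window. These are matches of letters and were not tested.

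The first comparison asked whether the HPRT knockdown line carried less or more of these transcripts than the control on the same day. Of the 42 genes, 41 were lower in the knockdown by limma's test of the 9 daily log2 ratios (Benjamini-Hochberg adjusted p under 0.05 over all 13590 genes) and none was higher, where 26.5% of all tested genes were called lower and 26.3% higher. The median gene had a mean log2 ratio of -0.73, a 1.66-fold lower level, and the means ran from -1.51 (Pttg1) to -0.34 (Prc1), the gene that was not called. Values after ± are SDs over the 9 days unless an SE is named. The ratio was below 0 on all 9 days for 34 of the 42 genes, against 15.3% of all tested genes. For 34 genes the exact two-sided sign-flip permutation test reached 0.00391, the smallest p that 9 days allow, and after Benjamini-Hochberg adjustment 39 of the 42 were called lower by it, with 25.1% of all tested genes. Across the 9 days the reads of both lines overlapped in all 27 genes with recovered reads. When the pairing by day was dropped and the libraries were compared as groups of 9 against 9, 19 of the 42 genes were called lower, with 20.8% of all tested genes called lower in that fit.

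**Figure D1:**
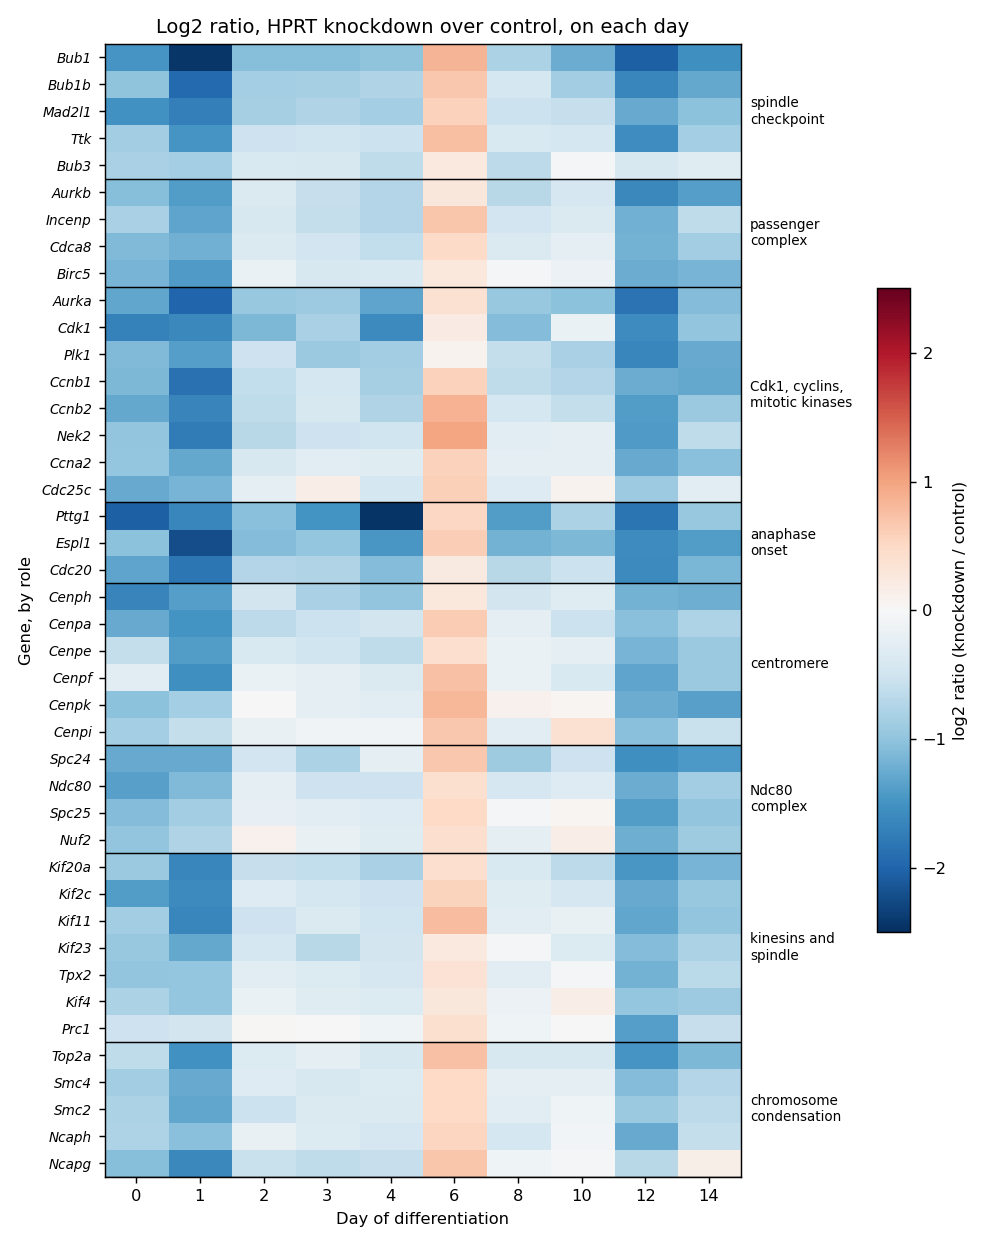
Heat map of the log2 ratio of HPRT knockdown over control for the 42 genes (rows, grouped by role) on each of the 10 days (columns), blue where the knockdown was lower and red where it was higher. The columns for days 0, 1, 12 and 14 are the deepest blue and the column for day 6 is red throughout, with 42 of 42 genes above 0.

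The spindle checkpoint genes, whose products sense unattached kinetochores, were all lower (5 of 5, median of the mean log2 ratios -1.01). Bub1 (chr2:127626858-127657601), the kinase that recruits other checkpoint proteins to the kinetochore, was the furthest. In the control its normalised reads over the 9 days had a lowest value of 550.0, a median of 1341 and a highest value of 1922. In the knockdown the lowest value was 181, the median 623 and the highest 949, with day 14 lowest and day 4 highest in both lines. The ranges overlapped, but on each of the 9 days the knockdown was lower. The log2 ratios were -1.48, -2.43, -1.06, -1.06 and -1.0 on days 0 to 4, and -0.78, -1.25, -2.03 and -1.54 on days 8, 10, 12 and 14. They averaged -1.40 ± 0.53 (SD, n = 9 days), 2.65-fold lower, with an adjusted p of 0.000163. Bub1 ranked among the 10 lowest of the 42 genes on all 9 days. Bub1b, which encodes BubR1, the inhibitor of Cdc20, had a mean of -1.07 ± 0.47 and Mad2l1, which encodes its partner in the mitotic checkpoint complex, a mean of -1.01 ± 0.41. Ttk, the Mps1 kinase at the head of the pathway, stood at -0.79 ± 0.45. Bub3, the smallest of the 5 differences, was at -0.50 ± 0.26 (SD, n = 9 days), which is also the smallest SD of all 42 genes.

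The genes for anaphase onset had the lowest median of the 8 roles (3 of 3 called lower, median -1.33). Pttg1 (chr11:43233752-43239753), securin, ran in the control from 262 normalised reads through a median of 710.2 to 887. In the knockdown it ran from 131 through a median of 238 to 317, so that its highest knockdown value reached above the lowest control value. Its daily log2 ratios were -2.05, -1.63, -1.04, -1.49 and -2.44 on days 0 to 4 and -1.40, -0.79, -1.82 and -0.94 on days 8 to 14. Unlike Bub1, which was lowest on day 1, Pttg1 was lowest on day 4. The ratios of Pttg1 averaged -1.51 ± 0.54 (SD, n = 9 days), 2.85-fold lower, with an adjusted p of 0.000125. Espl1, separase, which securin holds inactive, was at -1.33 ± 0.39 (adjusted p = 6.11e-05), and Cdc20, the activator that brings securin to the anaphase-promoting complex, at -1.07 ± 0.44 (adjusted p = 0.000253). Bub1, Pttg1, Espl1 and Aurka were the 4 genes that were at least 1.5-fold lower on every one of the 9 days. How many of all tested genes did so was not counted, so the 4 are given as description only.

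Among Cdk1, the cyclins and the mitotic kinases, 8 of 8 genes were lower (median -0.93). Aurka (chr2:172181690-172196035), the Aurora kinase of centrosomes and spindle poles, ran from 333 through 1112 to 1367 normalised reads in the control and from 149.8 through 372 to 660.1 in the knockdown (lowest, median and highest of 9 days). The daily ratios of Aurka were -1.31, -1.98, -0.94, -0.91 and -1.32 on days 0 to 4 and -0.95, -1.03, -1.85 and -1.09 on days 8 to 14. They gave a mean of -1.26 ± 0.40 (SD, n = 9 days) and an adjusted p of 8.32e-05, and no day came nearer to 0 than -0.91. Cdk1 itself was at -1.18 ± 0.49, with its smallest difference on day 10 (-0.17). Plk1, which acts at centrosomes, kinetochores and the midbody, was at -1.01 ± 0.37, Ccnb1 at -0.97 ± 0.45 and Ccnb2 at -0.90 ± 0.45. Of the Ccnb1 exon windows of read length, 68.7% occurred only once in the genome, the lowest share among the 42 genes, so that reads of near-identical copies may enter its value. Nek2, which helps to split centrosomes, was at -0.78 ± 0.52 and Ccna2, the cyclin of S phase and G2, at -0.67 ± 0.46. Cdc25c, the phosphatase that activates Cdk1, was nearest to 0 in this group at -0.49 ± 0.51 (adjusted p = 0.0276), below 0 on 7 of 9 days.

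The chromosomal passenger complex corrects faulty attachments and later directs cytokinesis, and its 4 genes were all lower (median -0.72). Aurkb (chr11:68859149-68865166), the kinase of the complex, ran from 392 through 954 to 1232 normalised reads in the control and from 145 through 499 to 756 in the knockdown. Its ratios were -1.07, -1.40, -0.37, -0.58 and -0.74 on days 0 to 4 and -0.70, -0.42, -1.61 and -1.37 on days 8 to 14. Every day was below 0, and the mean was -0.92 ± 0.46 (SD, n = 9 days; adjusted p = 0.000687). The other members lay close together, with Incenp, the scaffold, at -0.73 ± 0.34, Cdca8 (borealin) at -0.72 ± 0.38 and Birc5 (survivin) at -0.68 ± 0.55.

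The centromere genes were lower in 6 of 6 cases (median -0.63). Cenph (chr13:101529629-101545854), a subunit of the constitutive centromere network, ran from 133 through 322 to 444 normalised reads in the control and from 54.3 through 147 to 236 in the knockdown. Its ratios were -1.65, -1.38, -0.45, -0.81 and -0.996 on days 0 to 4 and -0.46, -0.31, -1.19 and -1.23 on days 8 to 14. The mean was -0.94 ± 0.46 (SD, n = 9 days; adjusted p = 0.000627). Cenpa, the histone H3 variant that marks the centromere, was at -0.78 ± 0.41. The motor Cenpe was at -0.66 ± 0.42 and the large corona protein Cenpf at -0.60 ± 0.52. Cenpk and Cenpi, both of the same inner network as Cenph, were weaker at -0.54 ± 0.58 (adjusted p = 0.0288, below 0 on 6 of 9 days) and -0.37 ± 0.44 (adjusted p = 0.0473, below 0 on 8 of 9 days). The call of Cenpi was lost when any 1 of days 0, 1, 2, 3, 4, 8, 12 or 14 was left out.

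The Ndc80 complex is the microtubule-binding rod of the outer kinetochore, and its 4 subunits were all lower (median -0.65), though not to the same degree. Spc24 (chr9:21559886-21564733) ran from 136 through 375 to 458 normalised reads in the control and from 48.2 through 199.4 to 337 in the knockdown. Its ratios were -1.26, -1.26, -0.47, -0.78 and -0.24 on days 0 to 4 and -0.89, -0.53, -1.53 and -1.43 on days 8 to 14. The mean of -0.93 ± 0.46 (SD, n = 9 days; adjusted p = 0.00065) was followed by Ndc80 at -0.73 ± 0.42, Spc25 at -0.57 ± 0.52 and Nuf2 at -0.48 ± 0.50. Differences between subunits were not tested. The calls of Nuf2, Cenpk and Cenpi were lost without day 0, 1, 12 or 14, and that of Cdc25c without day 0, 1 or 12.

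Of the kinesins and spindle genes 6 of 7 were lower (median -0.68). Kif20a, a kinesin of the central spindle that brings the passenger complex to the midzone, had ratios of -0.93, -1.63, -0.58, -0.62 and -0.80 on days 0 to 4 and -0.38, -0.66, -1.45 and -1.16 on days 8 to 14, a mean of -0.91 ± 0.42 (SD, n = 9 days; adjusted p = 0.000483). Of its exon bases 32.3% lie also in exons of Cdc23, a subunit of the anaphase-promoting complex, so that reads of the 2 genes may be shared. The next largest such shares were 15.1% for Kif4 (Pdzd11), 14.6% for Ccna2 (Exosc9) and 13.3% for Ncapg (Lcorl). Kif2c, which takes microtubules apart at kinetochores, was at -0.80 ± 0.51, Kif11, the motor that pushes spindle poles apart, at -0.74 ± 0.49 and Kif23, of the central spindle, at -0.68 ± 0.39. Tpx2, the activator of Aurora A on the spindle, was at -0.57 ± 0.39 and the chromokinesin Kif4 at -0.49 ± 0.42. Prc1, the cross-linker of midzone microtubules, had the smallest mean of the 42. Its ratios were -0.51, -0.47, 0.04, 0.00 and -0.10 on days 0 to 4, where the value of day 3 was just under 0, and -0.10, 0.01, -1.38 and -0.57 on days 8 to 14. The mean of -0.34 ± 0.46 (SD, n = 9 days) had an adjusted p of 0.0689, and day 12 was by far the lowest of its days.

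The genes of chromosome condensation were lower in 5 of 5 cases (median -0.59). Top2a, the topoisomerase that untangles sister DNA, had ratios of -0.64, -1.52, -0.33, -0.25 and -0.40 on days 0 to 4 and -0.40, -0.41, -1.47 and -1.13 on days 8 to 14. Its mean was -0.73 ± 0.50 (SD, n = 9 days; adjusted p = 0.00367). The condensin genes formed a narrow band, with Smc4 at -0.61 ± 0.39, Smc2 at -0.59 ± 0.37, Ncaph at -0.57 ± 0.40 and Ncapg at -0.57 ± 0.55. Ncapg was the only gene above 0 on day 14 (0.15).

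**Figure D2:**
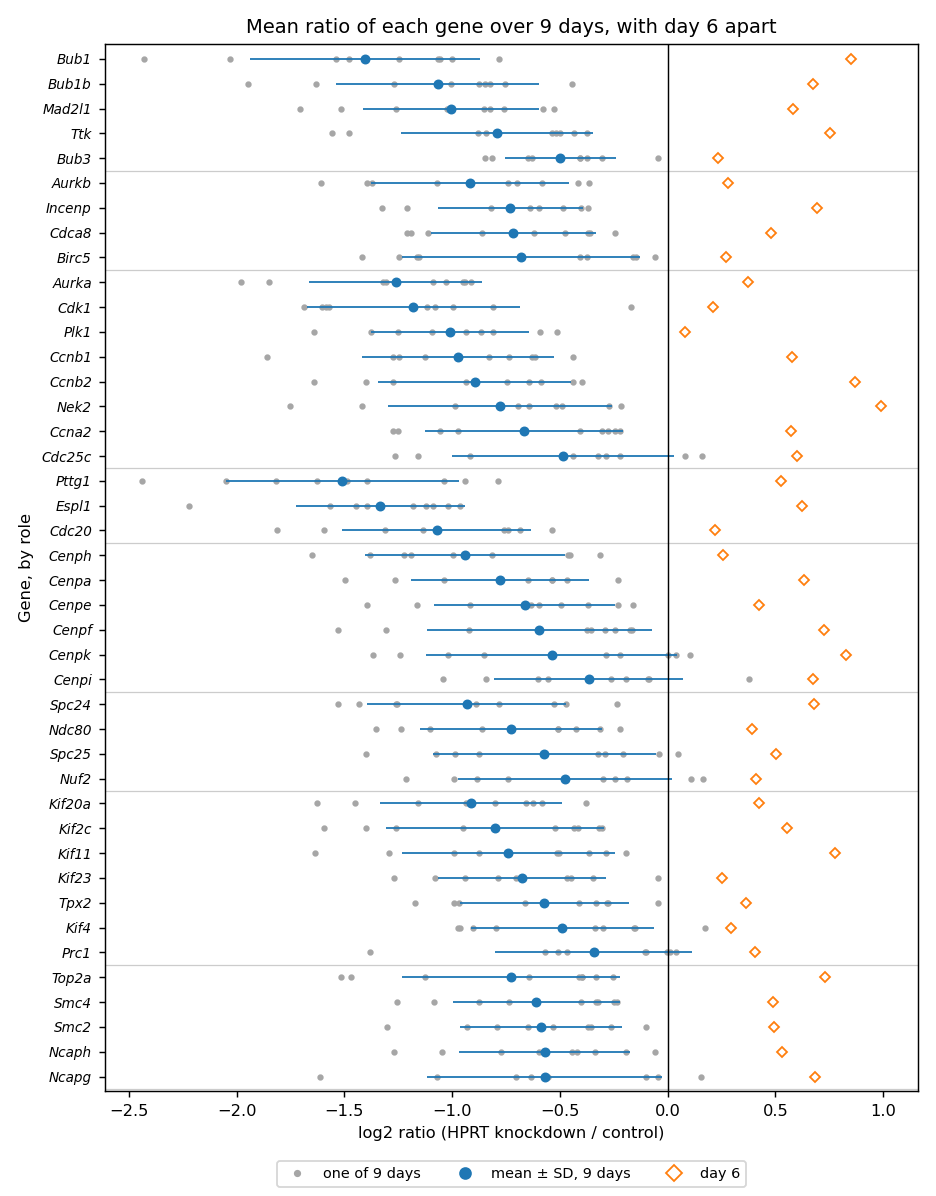
Mean log2 ratio of HPRT knockdown over control for each of the 42 genes (blue points, with bars of 1 SD over 9 days), the 9 daily values (grey) and day 6 (orange diamonds), grouped by role. All 42 means lie below 0, from -1.51 to -0.34, and all 42 diamonds lie above 0.

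The size of the difference varied from day to day. The median log2 ratio of the 42 genes began at -1.02 (day 0) and -1.40 (day 1), came up to -0.43, -0.49 and -0.52 over days 2 to 4 and to -0.37 and -0.31 over days 8 and 10, and ended at -1.26 (day 12) and -0.94 (day 14). Genes at least 1.5-fold lower in the knockdown numbered 40 at day 0 (19.6% of all tested genes were), 41 at day 1 (24.6%), 12 at day 2 (17.4%), 15 at day 3 (15.9%) and 18 at day 4 (16.5%). They numbered 11 at day 8 (13.9%), 9 at day 10 (19.4%), 41 at day 12 (18.9%) and 37 at day 14 (19.1%). The difference was thus wide at both ends of the course and narrow between, and the mean of the 42 genes had an SD of 0.40 over the 9 days while their 42 means had an SD of 0.28 over genes. The median of all tested genes stayed between -0.03 and 0.01 on these days.

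On day 6 the direction was the opposite. All 42 genes were higher in the knockdown library, where 50.0% of all tested genes were, and 16 of them at least 1.5-fold, where 11.1% of all tested genes were. The median log2 ratio was 0.53, the lowest was Plk1 at 0.08 and the highest Nek2 at 0.99, and Bub1 stood at 0.85. With 1 library per line on that day there is no test. Kept in the fit, day 6 left 35 of the 42 genes called lower, with 23.2% of all tested genes, and Cdc25c, Cenpf, Cenpi, Cenpk, Nuf2 and Ncapg lost their calls. Reads of Bub1 on day 6 were 1026 in the control and 1893 in the knockdown, the highest knockdown value of its course. Those of Pttg1 were 474 and 697, and those of Aurka 758 and 1001. Hprt was low in the knockdown library on that day as on the others.

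**Figure D3:**
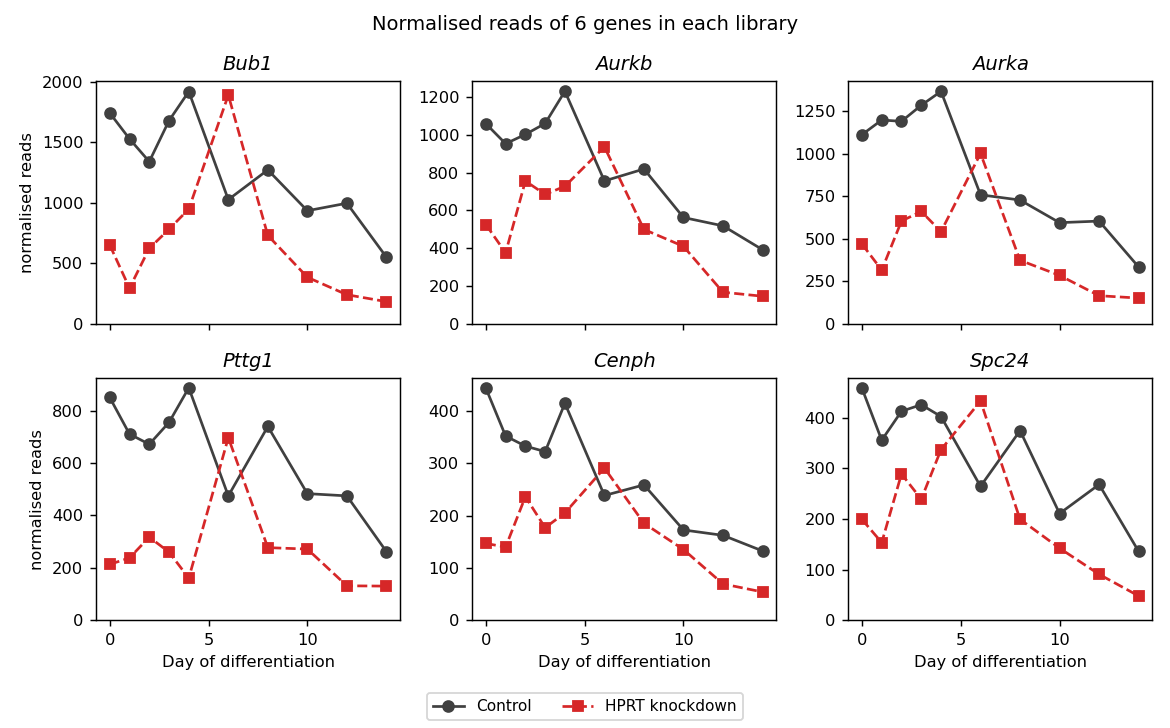
Normalised reads (linear axes from 0) of Bub1, Aurkb, Aurka, Pttg1, Cenph and Spc24 in each library against the day of differentiation, control as filled circles and HPRT knockdown as squares, with 1 library per point. The knockdown lies below the control on every day other than day 6, where the lines cross.

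The second comparison asked how the genes changed with time in each line. In the control the slope on day was below 0 and passed the test for 42 of 42 genes, where 23.6% of all tested genes had a falling and 19.6% a rising slope. The slopes lay in a narrow range from -0.136 log2 units per day (Birc5) to -0.073 (Ccnb2), with a median of -0.108 and a median SE of 0.0149. Birc5 fell by 0.136 ± 0.013 per day (SE, n = 9 days; adjusted p = 0.00033) and Mad2l1 by 0.127 ± 0.011 (adjusted p = 0.000279). From day 0 to day 14 the median gene fell by 1.52 on the log2 scale in the control, and from day 6 on all 42 genes stood below their day 0 level. Over the same days neuron markers rose in 6 of 8 cases and fibroblast feeder markers in 5 of 8 in the control, with the slope test used here. Glia markers fell in 3 of 10 cases and rose in 1, neural progenitor markers fell in 1 of 6, and pluripotency markers passed in 0 of 8. The part of any of these markers in the decline was not tested. Whether the transcripts of the fibroblast feeder list came from feeder cells or other cells was not tested either.

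In the knockdown line the slopes were as steep in the median (-0.112 log2 units per day) but scattered more around their lines (median SE 0.0356). They passed the test for 9 of 42 genes, where 5.41% of all tested genes had a falling and 7.35% a rising slope, though all 42 estimates lay below 0. The 9 were Plk1 (-0.153 ± 0.033, adjusted p = 0.0232), Aurka, Incenp, Kif20a, Prc1, Aurkb, Cenpk, Spc24 and Spc25. That count rested on single days. It was 28 without day 1 (6.71% of all tested genes fell in that fit), 25 without day 0 (11%), 8 without day 8 (4.11%), 2 without day 3 (3.28%) or day 4 (3.62%) and 1 without day 10 (2.35%). It was 0 without day 2 (2.02%), day 12 (1.07%) or day 14 (0.537%). The knockdown rose before it fell. Against its own day 0 the median gene was at -0.27 after 1 day and 0.56 after 2, at 0.65 by day 4 and 1.18 by day 6, back at 0.17 by day 8, and at -1.31 and -1.43 over the last 2 days sampled.

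The slope of the daily ratio, which tests the difference between the lines directly, passed for 0 of 42 genes by limma, where 6.65% of all tested genes passed with a lower and 7.28% with a higher slope in the knockdown. At an unadjusted p under 0.05, 1 of the 42 genes passed, against 32.6% of all tested genes. The differences ran from -0.036 (Prc1) to 0.078 (Ncapg) log2 units per day with a median of 0.001, and 21 of 42 were above 0. Ncapg had a difference of 0.078 ± 0.026 (SE, n = 9 days; 95% interval 0.020 to 0.136; adjusted p = 0.0731). Its reads were not recovered, and 13.3% of its exon bases lie also in exons of Lcorl, so that reads may be shared. Over all 42 genes the 95% intervals reached from -0.115 to 0.136, which is about the size of the control slopes themselves, so that a missed threshold does not show that the lines declined alike.

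**Figure D4:**
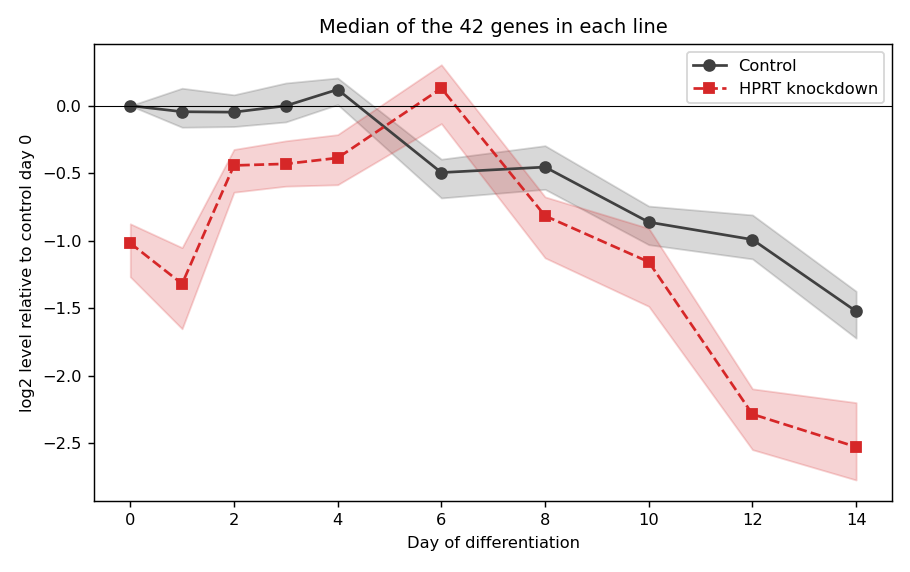
Median log2 level of the 42 genes against the day of differentiation, set relative to day 0 of the control, with shading from the lower to the upper quartile over genes. The control (circles) is flat to day 4 and then declines to -1.52, while the knockdown (squares) starts at -1.02, peaks at 0.13 on day 6 and ends at -2.53.

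The consecutive-day tables show on which steps this happened. In the control none of the 42 genes moved by 1.5-fold on any of the 4 steps up to day 4, on which 13.5%, 5.48%, 3.38% and 3.05% of all tested genes rose and 10.7%, 5.42%, 4.66% and 7.12% dropped that far. From day 4 to day 6, 25 of the 42 genes dropped at least 1.5-fold, where 12.3% of all tested genes did, with a median step of -0.65 and the largest for Bub1 (-0.87). From day 8 to day 10, 5 genes did so (3.59% of all) and from day 12 to day 14, 15 genes (8.82% of all), both steps with Spc24 as the largest (-0.86 and -0.96). Pttg1 alone rose that far, from day 6 to day 8 (0.61, with 12.9% of all). The control step from day 3 to day 4, whose table did not close with the others, had a median of 0.10 in its own table and 0.08 through the knockdown tables, and no gene reached 1.5-fold either way.

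The knockdown line moved in larger steps. From day 1 to day 2, 36 of the 42 genes rose at least 1.5-fold, where 10.8% of all tested genes did, with a median of 0.85 and the largest for Kif2c (1.22). From day 4 to day 6, 19 rose (13.0% of all), Pttg1 by far the most at 2.13. From day 6 to day 8, 41 of 42 dropped at least 1.5-fold (15.6% of all), with a median of -0.98 and the largest for Espl1 (-1.53), and from day 10 to day 12, 40 of 42 (9.43% of all), with a median of -1.13 and the largest for Nuf2 (-1.79). The remaining steps moved few genes, with 5 dropping from day 0 to day 1 (18.3% of all), 2 from day 3 to day 4 (10.3%), 4 from day 8 to day 10 (15.1%) and 3 from day 12 to day 14 (8.81%). These steps have 1 library on each side and no test, and steps that share a library share its error. In both lines the steps from day 4 to day 6 and from day 6 to day 8 use the day that was left out of the tests. The knockdown steps from day 1 to day 2 and from day 10 to day 12 do not.

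Other genes of mitosis, listed from general knowledge, were also mostly lower in the knockdown. Of 119 such genes 117 passed the level filter, and 81 of these were lower and 2 higher in the knockdown, with a median mean log2 ratio of -0.48, beside 26.5% of all tested genes lower and 26.3% higher. By sublist the counts called lower were 19 of 26 for centromere and kinetochore, 19 of 23 for checkpoint, kinases and cohesion, 25 of 32 for spindle and cytokinesis, 6 of 8 for condensins and chromosomes, 6 of 15 for the anaphase-promoting complex and 6 of 13 for regulators of mitotic transcription. The median of the anaphase-promoting complex was -0.18. Its 6 called genes, named after their values were seen, were Fbxo5 (Emi1, the inhibitor of the complex; -0.95 ± 0.47), Ube2c (its ubiquitin-conjugating enzyme; -0.88 ± 0.44), Fzr1 (Cdh1, an activator; -0.43 ± 0.16) and the subunits Anapc5 (-0.27), Anapc11 (-0.20) and Anapc7 (-0.18). The lowest of the 117 were Mybl2 (B-Myb, which acts with the MuvB complex on late cell cycle promoters) at -1.84 ± 0.74, Cdca7 at -1.54 ± 0.47 and Gtse1 at -1.30 ± 0.33. The highest were Rbl2 (p130, a subunit of the DREAM repressor of quiescent cells), which was higher at 0.81 ± 0.26 (adjusted p = 0.000135), above 0 on all 9 days, and Lin52, of the MuvB core, at 0.36 ± 0.32 (adjusted p = 0.0183). E2f4, also of DREAM and named after its value was seen, was lower at -0.86 ± 0.27 (SD, n = 9 days).

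DNA replication genes were lower in 46 of 47 cases with a median of -0.85, led by Orc1 (-1.64 ± 0.91), Dna2 (-1.46 ± 0.49) and Pole2 (-1.44 ± 0.31), and Orc5 alone was not called. Of the G1 cyclins, Cdks and inhibitors 5 of 18 were lower and 5 higher with a median of -0.05, shares near those of all tested genes (26.5% and 26.3%). Ccne1 was the lowest of them at -1.30 ± 0.40 and the Cdk4/6 inhibitor Cdkn2c the highest at 1.27 ± 0.68 (SD, n = 9 days). Cyclins and inhibitors stood on both sides. The Cdk inhibitor Cdkn1c was next to the lowest at -1.26 ± 0.63, and the cyclin Ccnd3 next to the highest at 0.73 ± 0.62. The lists share the control and knockdown libraries with the 42 genes, and no test was made between lists.

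**Figure D5:**
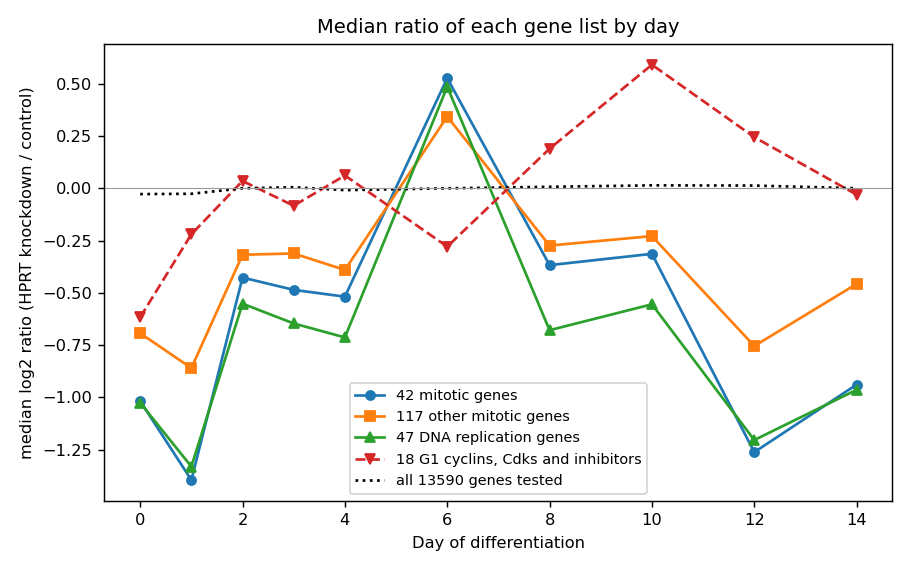
Median log2 ratio of HPRT knockdown over control by day for the 42 genes, 117 other mitotic genes, 47 DNA replication genes, 18 G1 genes and all 13590 genes tested. The first 3 lists each have their 2 lowest medians on days 1 and 12 and lie above 0 on day 6, while the median of all genes stays near 0.

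Markers of cell types also differed between the lines, and their part in the results above was not tested. Their calls stand beside 26.5% of all tested genes called lower and 26.3% higher, and their summed normalised reads are given over the 9 days without day 6. Pluripotency markers were lower in the knockdown in 8 of 8 cases (median -2.71), and the reads of the 4 of them with recovered reads summed to 2215 to 7429 in the control and 269 to 2706 in the knockdown. On day 6 that sum was 2406 in the control and 6986 in the knockdown, the highest of the knockdown course. Pou5f1 was the largest part of it, at 1133 and 5046 normalised reads. The median ratio of the 8 markers was 0.26 on day 6 and lowest at day 1 (-7.57). Directions on day 6 were mixed. Klf4 (-1.52), Zfp42 (-0.73) and Tdgf1 (-0.13) were below 0, while Nanog (1.24), Utf1 (1.45) and Esrrb (0.36) were above. Neuron markers were lower in 5 of 8 cases (median -1.46), with reads of 5 genes summing to 6945 to 17573 in the control and 2309 to 9257 in the knockdown. Glia markers were higher in 6 of 10 cases (median 1.75). Reads of 5 of them summed to 4369 to 10794 in the control and 10881 to 26619.8 in the knockdown, and to 8920.2 and 8733 on day 6. The median ratio of all 10 glia markers on day 6 was 0.66. On that day Slc1a3 (-0.71), Aldh1l1 (-0.94) and Gfap (-0.49) were below 0, while Olig1 (0.37), Olig2 (0.96) and Mag (4.20) were above. Neural progenitor markers were higher in 2 of 6 cases and lower in 2, with reads of 3 genes summing to 5471 to 9925 in the control and 5657 to 15489 in the knockdown, and to 15194 and 8976 on day 6. Of the fibroblast feeder markers 2 of 8 were called lower (median -0.38), a share near that of all tested genes, with reads of 5 genes summing to 2180 to 22959 in the control and 1911 to 9065 in the knockdown. Neuron, glia and progenitor markers were thus present from day 0 in both lines, when Tubb3 had 5180.2 and 4521 normalised reads in control and knockdown beside 1497 and 1091 of the pluripotency factor Pou5f1. Rbfox3 (NeuN) alone of these markers was at the floor of the tables in both libraries of a day, on 6 of the 10 days.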

How the data were processed

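RNA from each library was sequenced by the authors on an Illumina HiSeq 2000 after TruSeq v2 preparation (which does not keep strand), aligned with ELAND to mm9 (NCBI37), with CASAVA 1.8.2 and DESeq named in the submitters' processing notes. The authors deposited 28 tables of 2 libraries each (10 same-day, 9 consecutive-day per line) of normalised log2 values, centred on the pair and floored at low values. Per the labels the RNA came from independently replicated cultures, which the study pooled within line and day before making each library, and neither their number nor the lane of each library is given in the sources used here. From these the log2 difference of each table was taken. The day-3 to day-4 table of the control did not close with the others, with 0.0221% of genes closing within 1e-05 against 91.1% to 92.8% for the other loops. Genes were kept at a typical log2 normalised count of at least 4, judged from the rounding of the single-precision values, and for genes with recovered reads 93.5% fell on the same side of that filter by their reads. Levels along a line were built by adding the consecutive-day steps.

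Daily ratios and slopes were tested with limma 3.58.1 in R 4.3.3 (lmFit, eBayes), with Benjamini-Hochberg adjustment over the 13590 genes and a threshold of 0.05, after the code was tested on simulated data. The day pairs the lines, being the same differentiation day in the labels; deviations of same-day libraries from their line's mean correlated at 0.133 to 0.417 over genes on 8 of 9 days and at -0.038 on day 0. Reads were recovered as whole numbers of bases divided by 49, accepted for 27 genes and for 0 of 42 sets of perturbed values. Intervals from reads were not made, and they would cover counting error only. Gene positions are from NCBIM37 with GENCODE vM1, promoters from RefSeq GRCm38.p6. Alternatives were other level filters, day 6 kept, each day left out, median-centred tables, disagreeing genes left out, an exact sign-flip test, no pairing, a slope on log2(day + 1), a 2-fold step, and a shorter promoter window. The members and lists were chosen with earlier results of these data known. Daily values are given for the member of each role with the mean ratio furthest from 0 and for Prc1, the member nearest to 0 among all 42, and of other lists the 3 lowest and 3 highest may be named.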

Additional observations from a re-analysis of the deposited data

Results flagged for a closer look

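Among the 10 daily log2 ratios of each gene, day 6 stood apart by more than Dixon's 95% critical gap for 7 of the 42 genes, in each case as the highest day. These were Bub1 (0.85), Mad2l1 (0.58), Ttk (0.76), Incenp (0.69), Ccnb2 (0.87), Aurka (0.37) and Espl1 (0.62). Chance alone flags about 1 in 20 such groups, and the genes share the same 2 libraries, so that the 7 are not separate observations. The share of all tested genes flagged in this way was not counted, so the 7 cannot be set against it. The difference in slope between the lines passed the adjusted threshold for 0 of the 42 genes by limma, and at an unadjusted p under 0.05 for 1, Ncapg.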

How the results depend on the processing

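Of the 42 genes, the count called lower in the knockdown lay between 37 and 41 when 1 day was left out. Dropping the pairing by day (no replicate block) gave 19 of 42 in place of 41. Calls over all genes in either direction were 7171 in the main fit, 6283 to 7302 with 1 day left out and 5741 without pairing. The control slopes passed for 42 genes whichever day was left out, where the calls over all genes were 4546 to 6218. They passed for 39 on log2(day + 1), where the calls over all genes were 3833. The count of falling slopes in the knockdown, 9, was 2 with no level filter, 20 at a log2 count of at least 8, 1 with day 6 kept, 0 on log2(day + 1), and 0 to 28 with 1 day left out. Over all genes the knockdown slope calls, rising or falling, were 1734 in the main fit and 1320 with day 6 kept. They were 1689 of 19000 genes with no level filter and 1388 of 8452 at a log2 count of at least 8. On log2(day + 1) they were 122, and 210 to 2903 with 1 day left out. Calls of a slope difference over all genes were 1049 with day 6 kept and 597 to 1639 with 1 day left out, and 0 of the 42 genes passed in any of these. At 2-fold the 196 gene steps were 55, with the 1 rise in the control down to 0 and its 45 drops to 0, and in the knockdown 55 rises down to 11 and 95 drops to 44. Shares of all tested genes at 2-fold are not given here, so these counts cannot be set against them. Within 250 bases before the start 12 genes held a CHR, 1 the E2F letters and 11 both CHR and CCAAT, in place of 23, 2 and 21. Centring the tables changed no count by over 1.5 times, and no gene's mean ratio or slope within a line changed sign under them, while of the slope differences Ncapg alone was followed. With 1 line of each kind, days of a culture are no replicates of the knockdown, and recovered reads exist for 27 of 42 genes.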
